A study of Homo sapiens with 3 samples.

Results

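The 39 human HOX genes were followed through the first 3 days of a human embryo-like culture. They are all genes among the 36601 in the deposited tables whose symbol is HOX, a cluster letter from A to D and a paralogue number. The HOXA cluster has 11 of them, HOXB 10, HOXC 9 and HOXD 9. The cells were UCLA1, a human embryonic stem cell line, grown as GiMO, in which Geltrex, a gel of basement membrane proteins, overlies the cells. They were dissociated and profiled by droplet single-cell RNA sequencing (10x Genomics) on day 1, day 2 and day 3. The title of the series concerns the response to the growth factor BMP4, TFAP2A-positive cells and the epithelial-to-mesenchymal transition in the embryonic disc around implantation. The labels give no separate treatment arm. The groups are therefore the 3 days, 1 line and 1 library each, and a day and its library cannot be told apart.

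HOX genes encode homeodomain transcription factors that give cells their position along the head-to-tail axis. Each cluster is a row of genes, all read in the same direction. Low-numbered genes at the 3′ end are generally switched on first and furthest forward, and high-numbered genes at the 5′ end later and further back, an order called collinearity. In vertebrate embryos the first HOX transcription is seen in the primitive streak and the mesoderm that leaves it. CDX factors, WNT, FGF and retinoic acid act upstream, Polycomb proteins keep the clusters silent in pluripotent cells, and PBX and MEIS proteins bind DNA together with HOX proteins.

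On hg38, with gene positions from GENCODE release 44, the HOXA genes lie on chromosome 7 from 27092993 to 27200091 on the minus strand. The HOXB genes lie on chromosome 17 from 48528526 to 48728750, also on the minus strand. The HOXC genes lie on chromosome 12 from 53938831 to 54056030 and the HOXD genes on chromosome 2 from 176092721 to 176190907, both on the plus strand. The values are counts of UMIs, the tags that mark single RNA molecules, and a level is the count scaled to the total UMIs of its library (CPM, the usual per-library scale). Levels were not divided by gene length, so the order of genes is an order of UMI counts. Exons of 20 HOX genes overlap an exon on the opposite strand, and exons of 8 overlap another gene on the same strand. How the counting treated strand is not stated in the labels, so whether UMIs of opposite-strand partners were kept apart could not be checked. The same holds for reads in exons shared on the same strand.

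After filtering, 3533, 7224 and 6804 cells were kept from days 1, 2 and 3, with 165813128, 119744389 and 137684818 UMIs. The median depth was 41595, 15642 and 19227 UMIs a cell. For values per cell, each cell was therefore thinned at random to 5000 UMIs, which left out 34, 482 and 129 shallower cells. With 1 library a day there is no replicate and no test between days. Exact 95% intervals are given, and they cover counting error only. Between 5 and 10 barcodes of kept cells were shared by any 2 libraries. A UMI of the pluripotency gene POU5F1 was found in 97.9%, 95.8% and 74.1% of thinned cells on days 1, 2 and 3, of SOX2 in 54.8%, 26.1% and 2.10%, and of the mesoderm gene MESP1 in 0.429%, 18.7% and 63.3%.

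All 4 clusters were nearly silent on day 1, and most of their genes rose, first a little and then steeply. The summed HOX level was 1.53 CPM on day 1 (interval 1.34 to 1.73), 12.6 CPM on day 2 (12.0 to 13.2) and 414.2 CPM on day 3 (410.8 to 417.6). These sums rest on 253, 1507 and 57024 UMIs. The day 3 sum was 32.9 times that of day 2, and the day 2 sum was 8.25 times that of day 1. No UMI was counted for 17 genes on day 1 and for 5 on day 2, whereas each of the 39 had at least 1 UMI on day 3.

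A gene was called when its level differed by at least 2-fold with an interval excluding 1, among genes with at least 20 UMIs over the 3 libraries. That minimum was passed by 36 HOX genes, of which 18 passed only through their day 3 UMIs and so passed because they were high there. HOXC12, HOXD4 and HOXD12 fell short, with 5, 14 and 1 UMIs in all. From day 1 to day 2, 24 of the 36 were called higher and 0 lower, where 15.6% of all 25408 genes tested were called higher and 1.87% lower. From day 2 to day 3, 35 were called higher and 0 lower, against 9.15% of all genes called higher and 12.7% called lower. From day 1 to day 3 the same 35 were called higher, against 21.8% of all genes. The median log2 ratio of the HOX genes was 2.79 for day 2 over day 1 and 5.18 for day 3 over day 2, while the median of all genes tested was 0.31 and -0.04. In these medians an earlier-day count under 3, or a later-day count of 0, was set to 3.

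The clusters did not rise alike. HOXB had 0.338, 6.36 and 302.3 CPM on days 1, 2 and 3, and HOXA had 0.440, 4.28 and 68.7 CPM. HOXC had 0.0483, 0.568 and 22.6 CPM, and HOXD had 0.700, 1.38 and 20.5 CPM. HOXB thus supplied 22.1%, 50.6% and 73.0% of all HOX UMIs on the 3 days, and HOXD 45.8%, 10.9% and 4.96%. On day 2 all 10 HOXB genes were called higher than on day 1, compared with 7 of 11 HOXA genes, 4 of 8 tested HOXC genes and 3 of 7 tested HOXD genes. Genes with few UMIs are hard to call, and HOXC had 68 UMIs on day 2, against 512 for HOXA. The summed levels rose 18.8-fold for HOXB (14.3 to 25.2), 11.8-fold for HOXC (5.65 to 28.4), 9.71-fold for HOXA (7.59 to 12.6) and 1.97-fold for HOXD (1.54 to 2.52).

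By paralogue number, the share of HOX UMIs held by genes 1 to 3 was 60.9%, 46.4% and 23.4% on days 1, 2 and 3. Genes 4 to 8 held 3.95%, 29.9% and 53.3%, and genes 9 to 13 held 35.2%, 23.6% and 23.3%. The low-numbered share therefore shrank as the middle share grew, while the high-numbered share on day 2 was close to that on day 3. The day 1 shares rest on 253 UMIs, of which HOXD1 alone gave 98.

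**Figure D1:**
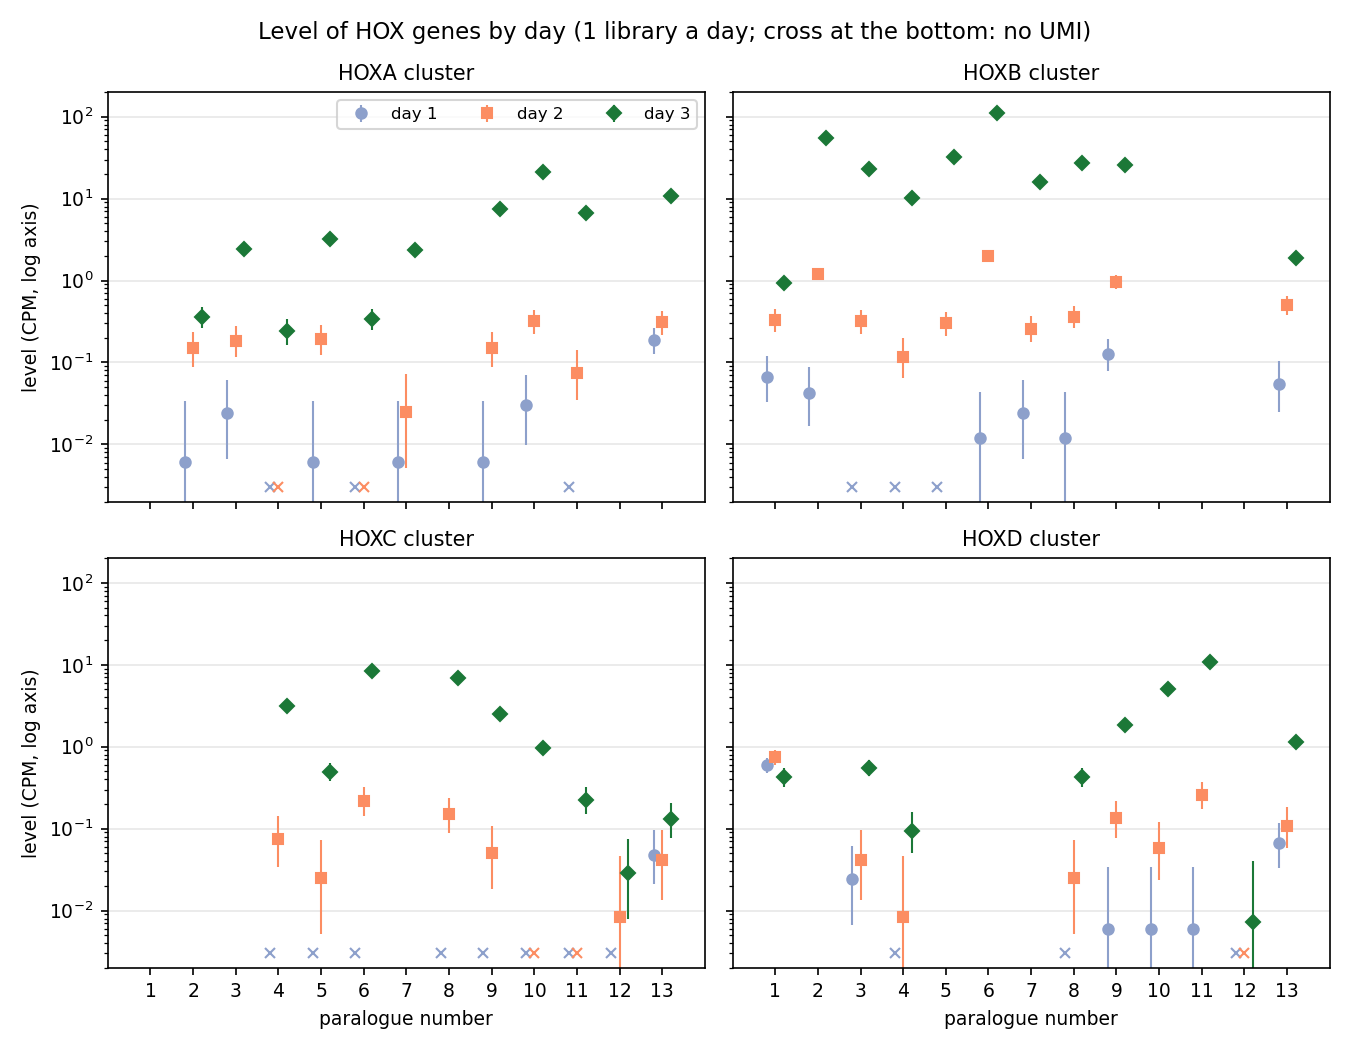
Level of HOX genes in CPM (log axis) by paralogue number, 1 panel a cluster, for day 1 (circles), day 2 (squares) and day 3 (diamonds). Bars are exact 95% intervals of the count and crosses mark genes with no UMI; all HOXB genes from 2 to 9 reached at least 10.3 CPM on day 3, whereas HOXD1 stayed under 1 CPM on all days.

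HOTAIRM1, a noncoding RNA of the HOXA cluster, had 1.16, 13.5 and 79.3 CPM on days 1, 2 and 3 and so exceeded the summed level of all HOXA genes on each day.

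HOXB1 and HOXD1 stayed low. HOXB1, which sets the identity of a hindbrain segment in vertebrates, had 0.0663, 0.334 and 0.930 CPM. HOXD1 was the single tested HOX gene that was not higher on day 3. It had 98, 89 and 58 UMIs, or 0.591, 0.743 and 0.421 CPM, so that day 3 stood at 0.567 times day 2 (0.400 to 0.798), short of a 2-fold fall. It was also the highest HOX gene on day 1. HAGLR, the noncoding gene that overlaps HOXD1 on the opposite strand, ran close to it at 0.959, 1.05 and 0.603 CPM.

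HOXB2 and HOXB3, hindbrain and branchial genes in the embryo, were called on both steps. HOXB2 had 0.0422, 1.20 and 55.4 CPM, a day 3 level 46.0 times that of day 2 (39.04 to 54.68). HOXB3 had 0, 38 and 3206 UMIs, or 0, 0.317 and 23.3 CPM, and day 3 was 73.4 times day 2 (53.3 to 103.9). HOXB3 shares exons with HOXB4 and HOXB6 on the same strand. How reads in shared exons were assigned is not stated in the labels, so the effect on these counts could not be checked.

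In the middle of the cluster, HOXB4, a gene known for expanding blood stem cells when forced on, had 0, 0.117 and 10.3 CPM. HOXB5, which acts in neural crest of the gut, had 0, 0.301 and 32.3 CPM, and its day 3 level was 107 times day 2 (77.5 to 154). HOXB6, a gene of lateral mesoderm in mouse embryos, was the most abundant HOX gene on day 3, at 0.0121, 2.01 and 109.5 CPM. It alone held more UMIs on day 3 than all HOXA, or all HOXC and HOXD genes together.

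HOXB7 had 0.0241, 0.259 and 16.1 CPM, HOXB8 had 0.0121, 0.359 and 27.2 CPM, and HOXB9 had 0.127, 0.960 and 25.4 CPM. These trunk-level genes rose 62.2-fold, 75.9-fold and 26.5-fold between day 2 and day 3. HOXB13, a gene of the tail bud and later of the prostate, lies far from the others at the 5′ end. It had 0.0543, 0.501 and 1.89 CPM, a second step of 3.77-fold (2.84 to 5.08), against 26.5-fold for HOXB9. PRAC1, a small gene next to HOXB13, had 0.748, 5.28 and 13.9 CPM and a second step of 2.62-fold.

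In the middle of the HOXA cluster the day 3 levels were low. HOXA2, HOXA4 and HOXA6 stayed at or under 0.356 CPM. HOXA3, a pharyngeal arch gene, had 0.0241, 0.184 and 2.40 CPM; HOXA5 had 0.00603, 0.192 and 3.24 CPM; HOXA7 had 0.00603, 0.0251 and 2.35 CPM. The genes from HOXA9 to HOXA13 were all higher on day 3, with a peak at HOXA10.

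HOXA9, which acts in blood progenitors and the posterior body, had 0.00603, 0.150 and 7.46 CPM. HOXA10, known for its role in the uterus and the lumbar region, was the highest HOXA gene on day 3 at 0.0302, 0.317 and 21.4 CPM, and day 3 was 67.4 times day 2 (49.0 to 95.4). HOXA11, a gene of the forearm and kidney, had 0, 0.0752 and 6.75 CPM. HOXA13, a gene of the hand, foot and hindgut, had 0.187, 0.309 and 10.6 CPM, so its 31 and 37 UMIs on days 1 and 2 were not called different while its second step was 34.4-fold (24.8 to 49.1).

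HOXC genes, which pattern the thoracic and lumbar trunk, were highest in the middle of their cluster. HOXC4 had 0, 0.0752 and 3.10 CPM, HOXC6 had 0, 0.217 and 8.31 CPM, HOXC8 had 0, 0.150 and 6.86 CPM and HOXC9 had 0, 0.0501 and 2.48 CPM. None of these 4 had a UMI on day 1. HOXC6 on day 2 stood at 12.0 times the 3-count floor of day 1, and the lower limit of its ratio without that floor was 9.08. HOXC10, HOXC5, HOXC11, HOXC13 and HOXC12 had 132, 68, 31, 18 and 4 UMIs on day 3.

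In HOXD, the limb and genital genes of the 5′ end led on day 3. HOXD11 had 0.00603, 0.259 and 10.9 CPM and a second step of 42.3-fold (29.6 to 62.4). HOXD10 had 0.00603, 0.0585 and 5.10 CPM, HOXD9 had 0.00603, 0.134 and 1.86 CPM, and HOXD13 had 0.0663, 0.109 and 1.13 CPM. HOXD10 and HOXD11 share exons on the same strand. HOXD3, HOXD8, HOXD4 and HOXD12 had 76, 59, 13 and 1 UMIs on day 3.

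The 250 bases before the start of a gene could be read for 20 of the 39 HOX genes from RefSeq's promoter table (build GRCh38.p14). They are shown for 3 genes that behaved differently: HOXA9, which was higher in CDX4-positive cells as described below, HOXD11, the highest HOXD gene on day 3, and HOXD1, which did not rise. Each is written 5′ to 3′ in the direction of the gene, with motif matches on either strand in capitals.
HOXA9, chr7:27165538-27165787, minus strand: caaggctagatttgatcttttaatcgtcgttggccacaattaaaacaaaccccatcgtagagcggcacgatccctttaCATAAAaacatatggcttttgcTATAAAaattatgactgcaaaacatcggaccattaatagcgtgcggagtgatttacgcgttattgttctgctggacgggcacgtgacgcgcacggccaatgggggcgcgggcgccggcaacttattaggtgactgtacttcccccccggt
HOXD11, chr2:176107030-176107279, plus strand: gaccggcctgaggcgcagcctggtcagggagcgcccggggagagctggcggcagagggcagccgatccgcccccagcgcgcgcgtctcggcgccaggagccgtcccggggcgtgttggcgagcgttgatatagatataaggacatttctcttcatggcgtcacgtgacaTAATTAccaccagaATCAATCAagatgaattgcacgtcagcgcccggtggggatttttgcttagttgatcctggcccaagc
HOXD1, chr2:176188418-176188667, plus strand: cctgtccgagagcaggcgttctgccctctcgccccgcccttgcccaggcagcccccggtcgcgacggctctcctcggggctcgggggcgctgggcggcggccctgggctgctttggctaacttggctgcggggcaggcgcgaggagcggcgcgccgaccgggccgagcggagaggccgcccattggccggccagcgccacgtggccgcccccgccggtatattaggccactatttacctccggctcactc

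Motifs were searched as exact letters on both strands of these windows. TTTATG, a CDX-type motif (CATAAA on the other strand), was found in HOXA3, HOXA9 and HOXD8, 3 of 20 windows, against 9.64% of all 35116 windows of that length. HOXA3 held 3 matches and HOXA9 1, which began 172 bases before its start. The windows of HOXC4 and HOXA10, whose CDX4 ratios are also given below, held none. Those of HOXC6 and HOXC8 could not be read. A link between this motif and CDX4 was not tested. TAATTA, a homeodomain core, was in 2 of 20, HOXD3 and HOXD11, against 4.35% of all windows. TGATNNAT, a PBX-HOX-type motif, was in 3 of 20, HOXA2, HOXB1 and HOXD11, against 6.47%. In HOXD11 the TAATTA match began 81 bases and the TGATNNAT match 67 bases before the start, without overlap. TATAAA, the letters of a TATA box, was in 4 of 20 against 10.7%, and the HOXA9 match is shown above. That match began 150 bases before the start and the HOXA10 match 222 bases. The HOXA3 match began 29 bases before the start, and the HOXD13 matches 29 and 27 bases. Whether any of them acts as a TATA box was not tested. The HOXD1 window held none of the 4 motifs. It had 74.8% G or C and 31 CpG sites, compared with 48.8% and 20 in HOXA9, and 61.6% and 23 in HOXD11. The medians were 59% and 20.5 CpG over the 20 HOX windows and 58% and 11 CpG over all windows. HOXC4 and HOXC5 share 1 window.

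HOX RNA was detected in a minority of day 1 and day 2 cells and in most day 3 cells. After thinning, 0.743%, 4.61% and 57.1% of cells had a HOX UMI on days 1, 2 and 3. Without thinning the shares were 6.06%, 10.9% and 76.6%. The day 1 library had the deepest cells and the lowest shares. On day 3, 13.6% of 140 cells with a SOX2 UMI, the marker of pluripotent and neural cells, had a HOX UMI, compared with 58.1% of the other cells, at median depths of 19420 and 19397 UMIs before thinning. Among 214 cells with a UMI of the endoderm gene SOX17, the share was 35.5%, compared with 57.8% in the rest, at median depths of 17138 and 19449 UMIs. Barcodes scored most like doublets had been removed.

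Many day 3 cells carried several HOX genes at once. At least 2 different HOX genes were found in 0%, 0.786% and 37.9% of thinned cells on days 1, 2 and 3, and at least 5 in 0%, 0.0297% and 9.15%. The 0 of 3499 thinned day 1 cells allow, at 3 counts of the total, up to 0.0857% of cells with UMIs of 2 HOX genes at this depth, and the exact upper limit is 0.105%. Without thinning, 0.679%, 2.56% and 60.0% of cells had UMIs of at least 2 HOX genes, and the largest number of HOX genes in a cell was 4, 12 and 25. The UMIs were spread unevenly: the top 10% of day 3 cells held 43.7% of all HOX UMIs, and a single cell held up to 124.

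**Figure D2:**
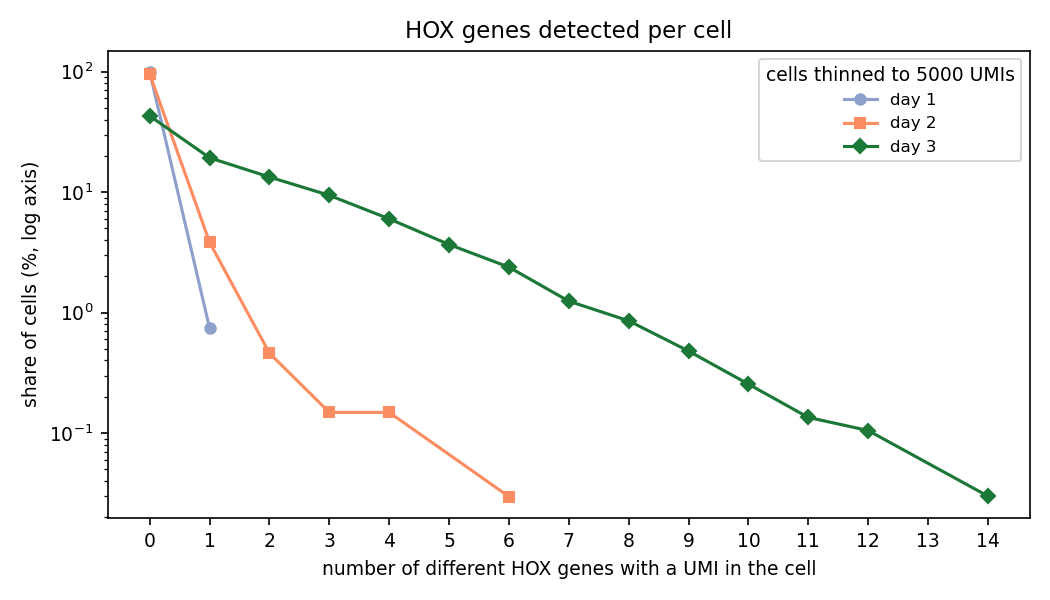
Share of cells (%, log axis) by the number of different HOX genes with a UMI, in cells thinned to 5000 UMIs, for the day 1, day 2 and day 3 libraries. No day 1 cell had more than 1 HOX gene, while 37.9% of day 3 cells had at least 2.

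On day 2 the HOXB6 RNA was concentrated in few cells: its 241 UMIs came from 99 cells, and 14 cells with 5 or more UMIs held 41.5% of them. The 144 UMIs of HOXB2 came from 93 cells, with at most 5 in a cell, and the 115 UMIs of HOXB9 came from 106 cells, with at most 2.

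Cells with a UMI of HAND1, a lateral and extraembryonic mesoderm factor, held most of the early HOXB6. HOXB6 had 26.8 CPM in 477 HAND1-positive day 2 cells, against 0.383 CPM in 6265 HAND1-negative cells, a ratio of 70.1 (37.5 to 143). HOXB2 had 13.8 CPM in HAND1-positive and 0.447 CPM in HAND1-negative cells, a ratio of 31.0 (16.1 to 62.6).

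In day 2 cells with TBXT, the primitive streak gene, HOXB6 had 1.59 CPM, against 2.51 CPM in cells without it, a ratio of 0.634 (0.335 to 1.13). HOXB2 had a ratio of 0.986 (0.478 to 1.92). The summed HOX level was higher with TBXT, at 16.0 CPM against 12.3 CPM, a ratio of 1.31 (1.07 to 1.59). The other listed streak markers differed on day 2, with ratios of the sum of 1.25 (1.03 to 1.52) for MIXL1 and 0.690 (0.553 to 0.856) for EOMES. On day 3 the ratio was below 1 for each, at 0.423 (0.400 to 0.447) for TBXT, 0.3645 for MIXL1 and 0.388 for EOMES.

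MESP1 marks mesoderm leaving the streak. HOXB2 and HOXB6 were 10.3 and 10.0 times higher in MESP1-positive than in MESP1-negative day 2 cells. This did not hold on day 3, where the ratios were 1.01 (0.917 to 1.11) for HOXB2 and 0.925 (0.865 to 0.989) for HOXB6. The day 3 HOX sum was 372.2 CPM in MESP1-positive and 504.2 CPM in MESP1-negative cells, a ratio of 0.738 (0.714 to 0.763). In SOX2-positive day 2 cells the summed HOX level was 4.20 CPM, against 16.5 CPM in SOX2-negative cells, a ratio of 0.254 (0.176 to 0.356).

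By day 3, HAND1-positive cells held most of the HOX UMIs. The sum was 528.3 CPM in 4665 HAND1-positive cells, against 170.7 CPM in 2010 HAND1-negative cells, a ratio of 3.09 (2.94 to 3.26). Cells thinned to 10000 UMIs gave a ratio of 4.95. Of the 28 HOX genes with at least 20 UMIs in thinned cells, 24 had an interval above 1 and 0 below, where 14.6% of all genes were above and 25.3% below. HOXB5 had the largest ratio of the genes over 10 CPM, with 40.8 CPM in HAND1-positive and 8.06 CPM in HAND1-negative cells, and HOXA10 the smallest, with 24.2 and 16.2 CPM in those classes.

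LHX1, a homeobox gene of early mesoderm, split the HOX genes. HOXB2 had 65.3 CPM in 4308 LHX1-positive day 3 cells, against 42.9 CPM in 2367 LHX1-negative cells, a ratio of 1.52 (1.37 to 1.69). HOXB3, HOXB4 and HOXB5 had ratios of 1.38, 1.62 and 1.28. These 4 neighbours were the only ones of the 28 with an interval above 1, where 18.8% of all genes had one.

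Of the other 24, 23 lay below 1, where 24.7% of all genes did, and HOXB1 held 1 in its interval. HOXA10 had 5.90 CPM in LHX1-positive and 50.7 CPM in LHX1-negative cells, a ratio of 0.116 (0.0953 to 0.141). HOXD11 had 2.60 CPM in LHX1-positive and 27.9 CPM in LHX1-negative cells, a ratio of 0.0932. HOXC8 had 1.44 CPM in LHX1-positive and 17.6 CPM in LHX1-negative cells, a ratio of 0.0819. Along HOXB the ratio was lower beyond HOXB5, at 0.719 for HOXB6, 0.562 for HOXB7, 0.638 for HOXB8 and 0.343 for HOXB9.

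CDX4, a caudal-type factor that acts upstream of posterior HOX genes, ranked them in a related way. In 275 CDX4-positive day 3 cells the HOX sum was 1308 CPM, against 382.5 CPM in 6400 CDX4-negative cells, and 92% of the CDX4-positive cells had a HOX UMI. Of the 28 genes, 24 had an interval above 1 and 0 below, where 7.68% of all genes were above and 9.84% below. HOXC4 had the largest ratio of the genes over 1 CPM, with 26.9 CPM in CDX4-positive and 2.38 CPM in CDX4-negative cells, a ratio of 11.3 (7.43 to 17.0).

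HOXC8, HOXC6, HOXA9 and HOXA10 had CDX4 ratios of 10.9, 9.09, 7.36 and 7.21. At the other end, HOXB2 had a ratio of 1.28 (1.04 to 1.57) and HOXB4 of 1.03 (0.568 to 1.72). In 605 cells with CDX2, the relative of CDX4, the HOX sum was 838.7 CPM, against 378.9 CPM in cells without CDX2. For CDX2, 23 of the 28 genes had an interval above 1 and 0 below, where 7.73% of all genes were above and 9.22% below. CDX1, a further relative, did not go this way. The HOX sum was 396.9 CPM in 519 CDX1-positive day 3 cells and 422.6 CPM in CDX1-negative cells, a ratio of 0.939 (0.881 to 1.001).

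TFAP2A, the gene in the title of the series and a marker of amnion and surface ectoderm, split the HOX genes while the interval of their sum held 1. The sum was 446.7 CPM in 210 TFAP2A-positive day 3 cells, against 419.8 CPM in TFAP2A-negative cells, a ratio of 1.06 (0.968 to 1.17). GATA3, the other listed marker of these tissues, went with a higher sum. It was 599.7 CPM in 1374 GATA3-positive day 3 cells and 374.2 CPM in GATA3-negative cells, a ratio of 1.60 (1.545 to 1.662). For TFAP2A, single genes lay on opposite sides. Intervals lay above 1 for 9 genes (HOXA9, HOXA10, HOXA11, HOXC4, HOXC6, HOXD9, HOXD10, HOXD11 and HOXD13) where 10.4% of all genes did, and below 1 for HOXB2, HOXB3, HOXB4 and HOXB5, where 7.41% did.

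**Figure D3:**
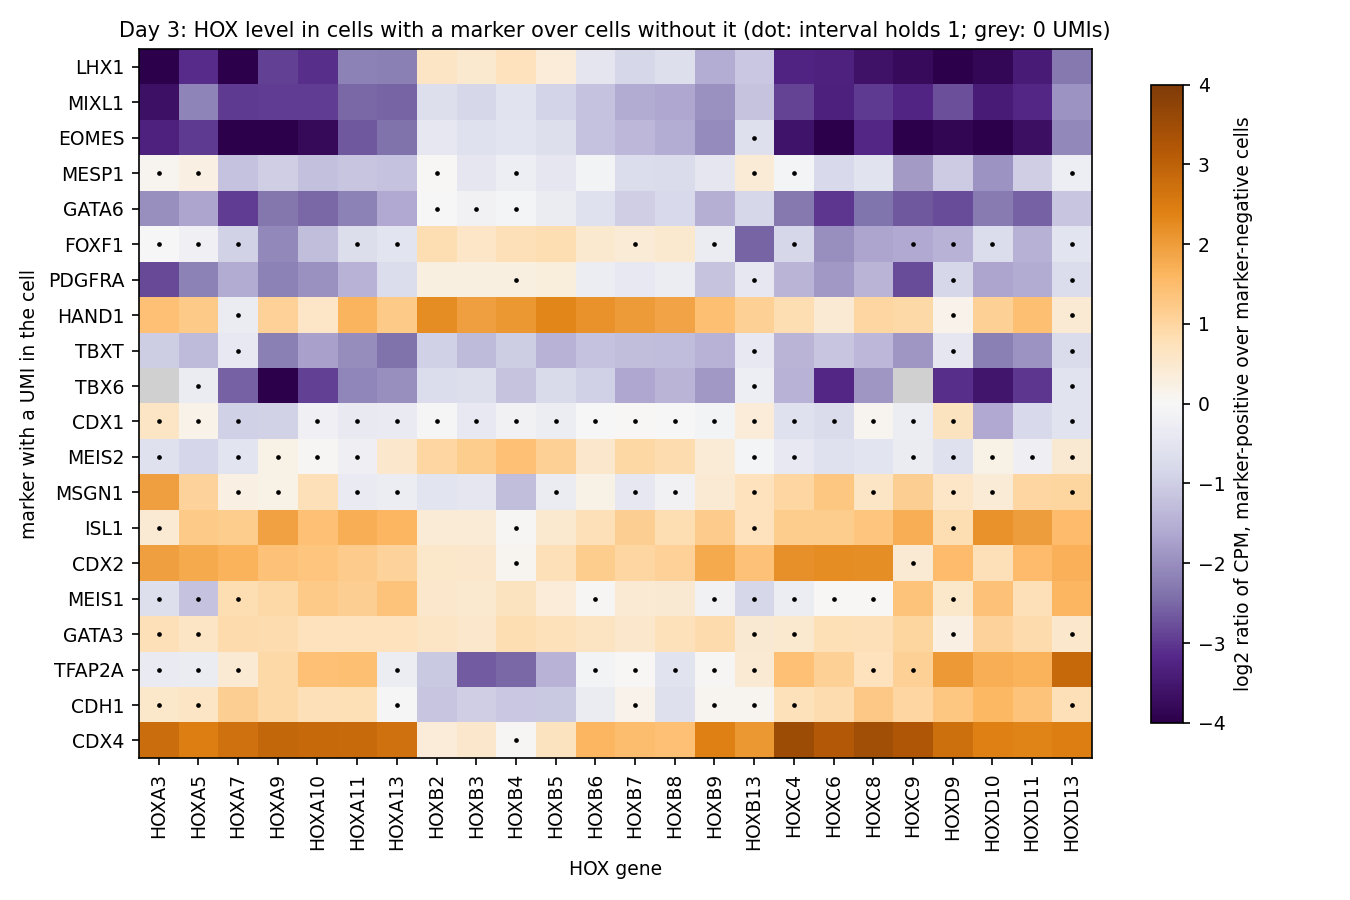
Log2 ratio of CPM between day 3 cells with and without a UMI of each of 20 markers (rows) for HOX genes that reached 1 CPM (columns), clipped at 4; dots mark intervals that hold 1. HOXB2 to HOXB5 are above 0 in the LHX1 row, where the HOXC and HOXD genes and HOXA9 to HOXA13 are far below it, and the CDX4 row is lowest for HOXB2 to HOXB5.

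The paraxial and lateral sides of the mesoderm were compared with a pair of markers each. The HOX sum was 544.3 CPM in 3988 cells with HAND1 or FOXF1 and neither TBX6 nor MSGN1, and 144.8 CPM in 384 cells with TBX6 or MSGN1 and neither HAND1 nor FOXF1. Cells with both kinds had 413.2 CPM and cells with neither 176.1 CPM. HOXB6 followed this order, at 146.6, 30.7, 121.2 and 32.6 CPM. The paraxial markers differed when taken singly: the HOX sum was 201.6 CPM in TBX6-positive and 448.6 CPM in TBX6-negative cells, a ratio of 0.449 (0.417 to 0.483). It was 472.7 CPM in MSGN1-positive and 416.6 CPM in MSGN1-negative cells, a ratio of 1.14 (1.07 to 1.21). The lateral markers also differed when taken singly. The ratio of the HOX sum was 3.09 (2.94 to 3.26) for HAND1 and 1.20 (1.13 to 1.27) for FOXF1. HAND1 was found in 4665 cells and FOXF1 in 509, so the class with HAND1 or FOXF1 is mostly HAND1 cells.

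Most pairs of HOX genes were found together in day 3 cells more often than independent detection at their single shares would give. The cells share a library and differ in state, so this is a description. Over the 66 pairs of the 12 genes above 10 CPM, the median of observed over independent was 1.82. Within HOXB, 28 pairs had a median of 2.03 (1.61 to 3.05). HOXB2 and HOXB6 were found together in 785 of 6675 cells, where independence gives 457.

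The highest of these ratios was for a pair on different chromosomes. HOXA10 and HOXD11 were together in 141 cells where independence gives 18.1, a ratio of 7.81. The highest value such a ratio can take is lower when either gene is found in more cells. HOXB6 was found in 31.3% and HOXB2 in 21.8% of thinned day 3 cells, against 6.996% for HOXA10. Pairs with HOXB6 or HOXB2 therefore cannot be ranked against HOXA10 with HOXD11 by strength. The 3 pairs among HOXA10, HOXA13 and HOXD11 had a median of 4.90. The same 3 genes with HOXB2 to HOXB5 gave 12 pairs with a median of 1.21 (0.752 to 1.64), and HOXA10 with HOXB4 was found in 17 cells where independence gives 22.6. HOXA10 with HOXB7, HOXB8 and HOXB9 lay between, at 2.99, 2.46 and 3.49.

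**Figure D4:**
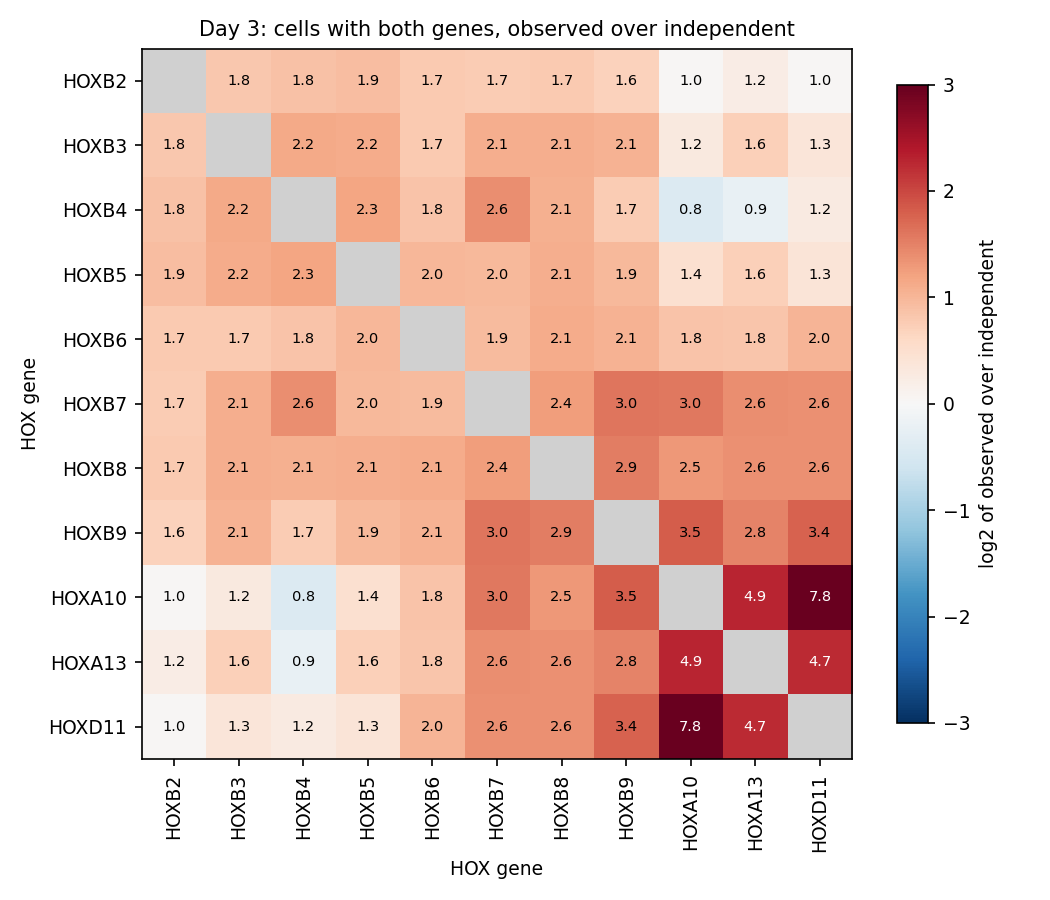
Number of day 3 cells with a UMI of both genes divided by the number independence would give, for pairs of HOX genes above 10 CPM, in cells thinned to 5000 UMIs. The block of HOXA10, HOXA13 and HOXD11 reaches 7.8, whereas these genes lie near 1 with HOXB2 to HOXB5.

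This contrast was followed with classes of cells chosen after these values were seen. A first class of 269 day 3 cells had at least 2 UMIs of HOXA10, HOXA11 and HOXA13 together. A second class of 979 cells had at least 2 UMIs of HOXB2 to HOXB5 together, and 50 cells that met both conditions were left out. Median depths before thinning were 17763 and 19466 UMIs. The 7 genes that made the classes are not compared.

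Of the other HOX genes, 18 had at least 20 UMIs in the classes together. Intervals lay above 1 for 16 of them in the HOXA10 to HOXA13 cells, where 13% of all 12336 genes did, and below 1 for 1, where 13.1% did. The 16 include HOXD11 and HOXB7 to HOXB9, whose pairs with HOXA10 had been seen before the classes were chosen. Their differences could be foreseen from that choice and are not separate support. All 16 also lay below 1 in the LHX1 split given above, as did HOXA10. The differences of the other genes are therefore not independent of that split. HOXD11 had 108.6 CPM in the HOXA10 to HOXA13 cells, against 8.58 CPM in the HOXB2 to HOXB5 cells, a ratio of 12.7 (8.92 to 18.3) that became 26.5 in cells thinned to 10000 UMIs. HOXC6 had 75.8 CPM in the first class and 5.72 CPM in the second, a ratio of 13.3 (8.66 to 20.9).

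HOXB9 differed less, at 104.1 CPM in the HOXA10 to HOXA13 cells and 44.5 CPM in the HOXB2 to HOXB5 cells, a ratio of 2.34 (1.88 to 2.90). HOXB7 and HOXB8 had ratios of 1.65 and 1.46. For HOXB6 the values were 252 CPM in the first class and 236.4 CPM in the second, a ratio of 1.07 with an interval of 0.942 to 1.20. HOXA7 and HOXA9 had ratios of 15.4 and 7.58.

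**Figure D5:**
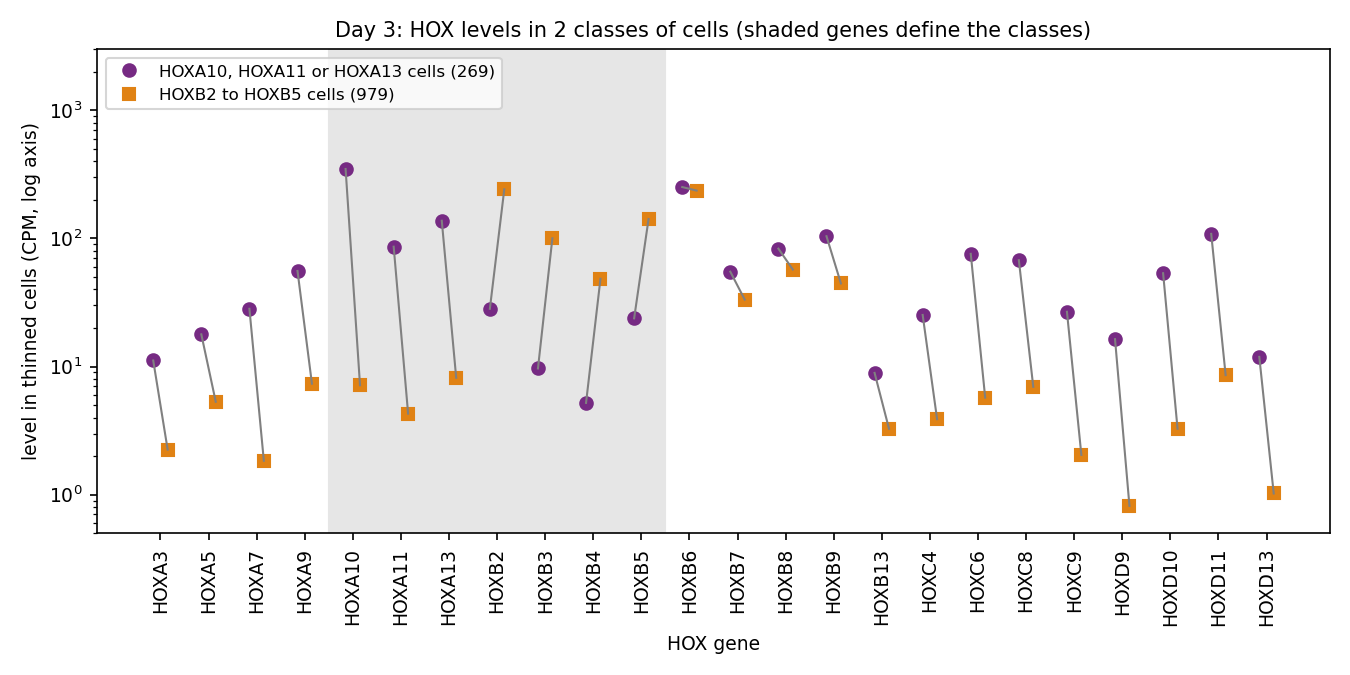
Level in CPM (log axis) of HOX genes with at least 20 UMIs in 269 HOXA10, HOXA11 or HOXA13 cells (circles, left of each pair) and 979 HOXB2 to HOXB5 cells (squares). Shaded genes define the classes; HOXB6 is at about the same level in both, and HOXC and HOXD genes are higher in the first.

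Other genes differed between these classes as well. Among 4198 genes of at least 50 CPM in either class, the 10 with the highest ratio were LEFTY2, CRHBP, PRRX1, HAND2, HPGD, SHROOM3, RSPO2, AMOT, RASGRF2 and TBX4. LEFTY2, an inhibitor of NODAL signalling, had 210.4 CPM in the HOXA10 to HOXA13 cells, against 5.11 CPM in the HOXB2 to HOXB5 cells. TBX4, a hindlimb and allantois gene in mouse, had 110 CPM in the first class and 11.4 CPM in the second.

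The 10 of these genes with the lowest ratio were AC100801.1, SYN3, LHX1, EOMES, DSCAM, NRG2, DGKB, FSHR, TMEM74B and LGR5. LHX1 had 37.9 CPM in the HOXA10 to HOXA13 cells, against 668.8 CPM in the HOXB2 to HOXB5 cells, a ratio of 0.0567 (0.0421 to 0.0747). HAND1 was high in both, at 626.8 and 762.2 CPM in those classes. CDX4 had 64.7 CPM in the first class and 10.0 CPM in the second, and TFAP2A had 17.1 and 1.84 CPM. Genes that made the classes had already lain apart by LHX1, CDX4 and TFAP2A above. The class differences in these markers restate those splits and are not separate support. Among markers of other cell types, SOX17 had 10.4 CPM in the HOXA10 to HOXA13 cells and 1.02 CPM in the HOXB2 to HOXB5 cells, and CDH1 had 53.5 and 11.4 CPM. SOX2 had 0 CPM in the first class and 0.409 CPM in the second, and PAX6 and SOX1 had no UMI in either. Their part in these differences was not tested.

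Cells rich in HOX RNA were also set against cells with no HOX UMI after thinning, called HOX-free below. On day 3, 2004 thinned cells had at least 3 HOX UMIs and 2862 had none, with median depths of 19164 and 19527 UMIs before thinning. Without thinning, 76.6% of all kept day 3 cells had a HOX UMI, so many HOX-free cells carried some HOX RNA. RSPO2, a secreted enhancer of WNT signalling, led the other genes of at least 50 CPM in either class, with 69.4 CPM in HOX-rich cells and 2.10 CPM in HOX-free cells. The cluster transcripts LINC02086 and HOXB-AS3 came next, followed by PMP22, ACTC1, TMEM88, MLLT3, CLSTN2, OAF and MYOCD with ratios of 20.7 down to 8.20. ACTC1, the cardiac actin, had 419.2 CPM in HOX-rich cells and 34.2 CPM in HOX-free cells.

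At the other end stood CER1, KIAA0825, ZIC2, ESRG, AL353747.4, FOXC1, CALN1, CDH20 and LINC00698. CER1, a secreted antagonist of NODAL and BMP, had 12.2 CPM in HOX-rich cells, against 209.2 CPM in HOX-free cells. ESRG, a transcript of pluripotent cells, had 11.4 CPM in HOX-rich and 94.5 CPM in HOX-free cells. FOXC1, a paraxial mesoderm gene, had 9.08 CPM in HOX-rich and 69.3 CPM in HOX-free cells.

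Of the noncoding genes inside the clusters, those of at least 10 CPM are given, a limit that each passed on day 3 and that favours genes that rose. HOTAIRM1 and the 4 below were called higher on both steps, whereas HAGLR and HAGLROS were called on neither. On days 1, 2 and 3, HOXB-AS3 had 0.0121, 0.284 and 23.2 CPM, HOXB-AS1 had 0.0181, 0.468 and 15.6 CPM, LINC02086 had 0.308, 1.09 and 28.1 CPM, and AC103702.2 had 0.428, 1.12 and 23.2 CPM. The last pair lies in the long gap between HOXB9 and HOXB13. HOTAIR, the antisense transcript of the HOXC cluster, had 0, 0 and 49 UMIs.

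The protein-coding genes next to the clusters moved less than most HOX genes. Of the 2 at each end of each cluster, EVX1 and SKAP2 beside HOXA were called higher on day 2, with 5.70, 21.7 and 34.3 CPM for EVX1 and 4.26, 14.2 and 27.4 CPM for SKAP2. SKAP1 was called higher on day 3 than on day 2, at 3.36 CPM on day 3 against 1.64 CPM on day 2, and TTLL6 lower, at 0.392 CPM on day 3 against 1.05 CPM on day 2. EVX2, beside HOXD13, had 0, 0 and 12 UMIs and was not tested. The others were not called on either step. Of all genes, 15.6% were called higher on the first step, and 9.15% higher and 12.7% lower on the second. From day 1 to day 3, EVX1, SKAP2, SKAP1, HIBADH, CALCOCO2 and LNPK were called higher and TTLL6 lower. Of all genes, 21.8% were called higher over those days and 11.8% lower. The ratios of HIBADH, CALCOCO2 and LNPK were 2.29, 2.29 and 2.37.

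Of 14 listed upstream factors, 8 were called higher on day 2 than on day 1 and 0 lower, where 15.6% of all genes were called higher. TBXT had 4.95, 81.3 and 58.0 CPM on days 1, 2 and 3, CDX1 had 3.64, 26.4 and 17.5 CPM, and CDX2 had 6.82, 15.3 and 23.4 CPM. CYP26A1, the enzyme that breaks down retinoic acid, had 0.838, 27.1 and 34.7 CPM.

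On the second step, CDX4 and ALDH1A2, which makes retinoic acid, were called higher, and FGF8 and GBX2 lower. These 2 of 14 in each direction lie near the background, where 9.15% of all genes were called higher and 12.7% lower. CDX4 had 2.69, 3.67 and 9.47 CPM, and ALDH1A2 had 1.01, 3.21 and 11.3 CPM. FGF8 had 4.08, 14.2 and 2.79 CPM. The other upstream genes on the list (WNT3A, WNT8A, RARA, RARB, RARG and GDF11) were not called on the second step.

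Of 9 HOX cofactors, 4 were called higher on day 3 than on day 2 and 0 lower, where 9.15% of all genes were called higher. MEIS2 had 0.464, 2.67 and 82.5 CPM, MEIS1 had 0.380, 1.40 and 24.4 CPM and PKNOX2 had 2.07, 6.35 and 48.5 CPM. PBX2 had 9.95, 13.8 and 29.7 CPM. PBX3, at 96.9 CPM on day 1 already, was called on neither step.

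Of 6 genes for Polycomb and Trithorax factors, KDM6B, a demethylase that removes the Polycomb mark, was called higher on both steps, where 15.6% and 9.15% of all genes were called higher. It had 1.19, 4.15 and 33.3 CPM on days 1, 2 and 3. EZH2, EED, SUZ12, KDM6A and KMT2A were called on neither. The ParaHox genes GSX1, GSX2 and PDX1 had at most 2 UMIs in any library.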

How the data were processed

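The deposited tables give raw UMI counts per gene and barcode for 3 libraries of UCLA1 cells, 1 each for days 1, 2 and 3. The authors made them with Cell Ranger 5.0.1 on hg38, per the submitters' processing notes. A barcode was kept if it had 1000 genes or more and if mitochondrial UMIs made up 20% or less. Scrublet's automatic threshold marked 3, 1 and 1 barcodes, so the top scores were removed at 0.8% per 1000 barcodes, 144, 668 and 457 in all. UMIs were summed per library and divided by the total (CPM). Intervals at the 95% level are exact Poisson for a CPM, conditional binomial for a ratio and Clopper-Pearson for a share. A count under 3 on the earlier day was set to 3 for ratios to the floor and for median ratios, as was a count of 0 on the later day for the medians. Cells were thinned to 5000 UMIs by sampling without replacement, with a fixed seed.

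No replicate exists, so no test between days was made and edgeR 4.0.16 was used only for TMM scaling. TMM and median-of-ratios factors lowered the median log2 ratio of all genes by 0.33 and 0.33 for day 2 over day 1, and by 0.31 and 0.27 for day 3 over day 1. Scanpy 1.11.5, numpy 2.4.6 and scipy 1.17.1 were used.

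The rule named all 39 HOX genes, with values by day from 1 CPM. Other genes were named if they were on a fixed list of regulators, cofactors, chromatin and ParaHox genes, if they were noncoding genes of at least 10 CPM inside a cluster or the 2 protein-coding genes beyond each end, or if they were among the 10 highest or 10 lowest ratios at 50 CPM or more between HOX-rich and HOX-free cells. HOXB13's neighbour PRAC1 met the CPM rule although it codes for a protein. HOTAIR, HAGLR and the genes of the HOXA10 to HOXA13 comparison were chosen after their values were seen. The HOX genes and all lists were chosen with earlier results of these data known. Results for some genes are not reported here, in text or figures; sums and counts over gene groups include them.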

Additional observations from a re-analysis of the deposited data

Results flagged for a closer look

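Barcodes that the cell filter removed were not used above. On day 3, 599 removed barcodes held 154 HOX UMIs among 968077, a summed HOX level of 159 CPM (134.9 to 186.3), against 0.592 CPM in the removed barcodes of day 1 and 2.70 CPM in those of day 2. Their median mitochondrial share was 73.6%, 44.5% and 62.4% on days 1, 2 and 3. The value stands out because it lies above that of the removed day 1 barcodes, in data outside the main measurement.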

How the results depend on the processing

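No paired analysis was possible because each day has 1 library, and no library could be left out for the same reason. Requiring a mean of 2 CPM left 16 HOX genes, so that 15, 16 and 16 were called higher for day 2 over day 1, day 3 over day 2 and day 3 over day 1; the other settings gave 23 to 36 in place of 24, 35 and 35, and none turned a direction. With a ratio of at least 1.5, HOXD1 was also called lower for day 3 over day 2. Under both TMM and median-of-ratios scaling HOXD10 was no longer called for day 2 over day 1, nor HOXC13 for day 3 over day 1. TMM scaling gave summed levels of 1.77, 11.6 and 387.2 CPM and median-of-ratios scaling 1.75, 11.5 and 393.3 CPM on days 1, 2 and 3. Keeping doublets gave 417.6 CPM on day 3. With every cell weighted equally, HOXB held 72.0% and genes 9 to 13 held 24.1% of the day 3 HOX level. The share of cells with a HOX UMI was 1.42%, 8.09% and 67.9% at 10000 UMIs a cell, and 0%, 0.920% and 40.6% when at least 2 HOX UMIs were required. At 10000 UMIs the day 3 ratios were 4.95 for HAND1 and 0.351 for MIXL1, and with doublets kept 0.383 for MIXL1 and 0.571 for LHX1. HOXB2 with HOXB6 came to 1.59 times independence at 10000 UMIs. Among MESP1-positive cells, HOXA10 with HOXD11 came to 10.7 times and HOXA10 with HOXB3 to 1.68 times independence. The causes were not tested. For 12 HOX genes over 10 CPM and HOXD1, all 65 ratios of day 3 over day 2 under 5 alternatives lay within the counting interval. In the comparison of HOXA10 to HOXA13 cells with HOXB2 to HOXB5 cells, with alternatives also chosen after seeing the data, the LHX1 ratio was 0.0791 with doublets kept.

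Depth limits the genes with fewest UMIs most: HOXC12, HOXD4 and HOXD12 had 5, 14 and 1 UMIs over the 3 libraries.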
